A study of Mus musculus with 28 samples.

Results

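Chromosomes 4 and 5 of mouse thymic lymphomas and sarcomas were described in bins of 1 Mb on the build GRCm38. A bin was kept where a deposited copy number segment reached it in all 24 tumours, which left 301 of the 2388 autosomal bins. Chromosome 4 had 154 bins, all of those between its first and its last segment, and chromosome 5 had 147 of 149. The bins left out on chromosome 5 were chr5:10000001-11000000 and chr5:133000001-134000000. The chromosomes were chosen by their mean copy ratios and gained shares in these same tumours, chromosome 4 for being high in thymic lymphomas against sarcomas and chromosome 5 for being high in AD against RP tumours. Their overall levels, and the counts of bins called between groups, are therefore given as a description. Only measures that the choice did not use are read as tests.

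Copy number came from exome sequencing of tumour DNA. The mice carried an engineered allele of Trp53, the gene of the tumour suppressor p53, opposite a null allele. The labels call the AD allele dimeric, the form of p53 that pairs but does not build the normal tetramer, and the RP allele monomeric. Thymic lymphomas, cancers of developing T cells, numbered 7 from AD and 7 from RP mice. Sarcomas, cancers of connective tissue, numbered 5 from AD and 5 from RP mice. All animals were on a mixed background labelled as 50% BALB/C and 50% C57BL6, all carried the null allele, and tumours were collected at the animals' end point. Each tumour name in the labels has its own animal number. No ages are given, and 4 ear samples were not analysed here. DNA copy number carries no expression, so the tumour types could not be checked against marker genes. Each value is a log2 copy ratio, the signal of a tumour over that of a comparison DNA, where 0 means no difference and 0.58 is the log2 of 3 copies against 2. Normal cells in a tumour pull every value towards 0, and their share is not known. The files hold 13070 to 13103 markers (capture targets or windows) on chromosome 4 and 13941 to 13956 on chromosome 5, and read depth is unknown. Marker numbers differed between the groups. Chromosome 5 had 13941 in AD and 13944 in RP thymic lymphomas, and 13956 in AD and 13954 in RP sarcomas, so separate processing of the groups cannot be told apart from genotype or tumour type.

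Mouse chromosomes have their centromere at one end, so proximal here means low coordinates, near the centromere, and distal means high coordinates. A gain of a whole chromosome arises when the chromosome is missegregated at cell division, and it changes the dose of every gene on it. A partial gain needs at least 1 break in the chromosome and changes the dose only of the genes in the gained part. Chromosome 4 carries the cell cycle inhibitors Cdkn2a and Cdkn2c, the T-cell kinase Lck and Trp73, a relative of p53. Chromosome 5 carries the receptor tyrosine kinases Kit, Pdgfra, Kdr and Flt3, the cyclin-dependent kinase Cdk6 and the DNA damage genes Chek2 and Brca2.

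Small regulatory genes show where the distal gain of chromosome 4 in AD sarcoma 2 began. RefSeq (GRCm38.p6) places 49 miRNA genes on chromosome 4, and 4 of them are shown, chosen after the ends of that gain were seen. miR-34a is induced by p53, and miR-200b, miR-429 and miR-200a lie in 1 cluster and are known for holding cells in an epithelial state. Capitals mark the seed, bases 2 to 8 of the mature miRNA.
miR-34a-5p: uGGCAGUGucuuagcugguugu
miR-200b-3p: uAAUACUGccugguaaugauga
miR-429-3p: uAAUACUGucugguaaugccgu
miR-200a-3p: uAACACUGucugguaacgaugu
miR-200b-3p and miR-429-3p share the seed AAUACUG, and miR-200a-3p has AACACUG. The mature miR-34a-5p lies at chr4:150068473-150068494 on the plus strand. miR-429-3p, miR-200a-3p and miR-200b-3p lie on the minus strand at chr4:156053916-156053937, chr4:156054911-156054932 and chr4:156055685-156055706. In AD sarcoma 2 the gain opened at chr4:150098757, 30.2 kb past the end of the Mir34a hairpin. Mir34a stood at 0.04 in that tumour, on the segment before the gain, and Mir200b, Mir200a and Mir429 stood at 0.93 inside it.

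On chromosome 5, the ends of an amplified stretch in AD sarcoma 1 fell among 3 neighbouring receptor genes, and the 250 bases before the RefSeq start of each are shown to place those ends. Kit encodes the receptor of stem cell factor, Pdgfra a receptor of platelet-derived growth factor, and Kdr a receptor of vascular endothelial growth factor. Capitals mark the motif GGGCGG or its reverse CCGCCC, the GC box, searched on both strands. It occurs in 32.7% of all 32851 RefSeq windows of this length.
Kit: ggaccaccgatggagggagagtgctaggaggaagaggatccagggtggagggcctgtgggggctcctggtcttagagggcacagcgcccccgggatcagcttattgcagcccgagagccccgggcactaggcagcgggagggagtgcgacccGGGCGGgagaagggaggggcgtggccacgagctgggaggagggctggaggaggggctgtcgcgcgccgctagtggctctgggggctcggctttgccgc
Pdgfra: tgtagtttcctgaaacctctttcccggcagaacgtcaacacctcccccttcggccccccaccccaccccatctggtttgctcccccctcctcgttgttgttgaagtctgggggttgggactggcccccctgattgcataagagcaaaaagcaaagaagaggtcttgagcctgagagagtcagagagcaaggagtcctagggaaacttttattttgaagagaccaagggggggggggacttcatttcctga
Kdr: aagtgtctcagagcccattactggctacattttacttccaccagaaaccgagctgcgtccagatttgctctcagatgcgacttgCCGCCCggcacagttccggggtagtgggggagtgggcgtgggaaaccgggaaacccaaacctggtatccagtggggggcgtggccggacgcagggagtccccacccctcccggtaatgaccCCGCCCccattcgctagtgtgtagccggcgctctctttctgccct
The Kit window lies at chr5:75574737-75574986 on the plus strand, holds 1 GC box and was inside the amplified segment at 1.39. The Pdgfra window lies at chr5:75152001-75152250 on the plus strand, holds 0 GC boxes and fell between segments, 9.99 kb before the amplified one begins. The Kdr window lies at chr5:75978456-75978705 on the minus strand, holds 2 GC boxes and fell between segments, 0.36 kb past the end of a segment at 0.20. The Pdgfra and Kdr windows lie within the annotated span of their genes. So of these 3 windows, only that of Kit was covered by an amplified segment. No segment measured the Pdgfra and Kdr windows, so their copy number in AD sarcoma 1 is not known. The motif places no factor there.

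In thymic lymphomas, chromosome 4 stood above 0 in 6 of 7 AD and in 7 of 7 RP tumours, while chromosome 5 stood above 0 in 7 of 7 AD and 5 of 7 RP tumours. The chromosome 4 mean had a lowest value of -0.08, a median of 0.18 and a highest value of 0.40 in AD thymic lymphomas, against 0.14, 0.37 and 0.44 in RP thymic lymphomas. The chromosome 5 mean had a lowest value of 0.10, a median of 0.26 and a highest value of 0.52 in AD thymic lymphomas, against -0.13, 0.15 and 0.19 in RP thymic lymphomas. The genotypes overlapped on both chromosomes. Chromosome 4 reached its lowest value in AD thymic lymphoma 1, and chromosome 5 was below 0 in RP thymic lymphomas 1 and 6.

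In sarcomas chromosome 4 stayed near 0. Its mean was -0.02, 0.01, 0.10, -0.07 and -0.04 in AD sarcomas 1 to 5, against 0.00, -0.10, 0.01, -0.03 and -0.07 in RP sarcomas 1 to 5. Chromosome 5 had 0.24, 0.14, 0.23, 0.21 and 0.02 in AD sarcomas 1 to 5, against 0.08, 0.14, 0.08, 0.07 and -0.01 in RP sarcomas 1 to 5. On chromosome 5, 3 AD sarcomas stood above every RP sarcoma, and AD sarcoma 5 was near 0. Among the 19 autosomes of each tumour ordered by level, chromosome 4 was among the 3 highest in 4 of 7 AD and 5 of 7 RP thymic lymphomas and in 0 of 10 sarcomas. Chromosome 5 was among the 3 highest in 4 of 7 AD and 0 of 7 RP thymic lymphomas, and in 3 of 5 AD and 3 of 5 RP sarcomas.

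**Figure D1:**
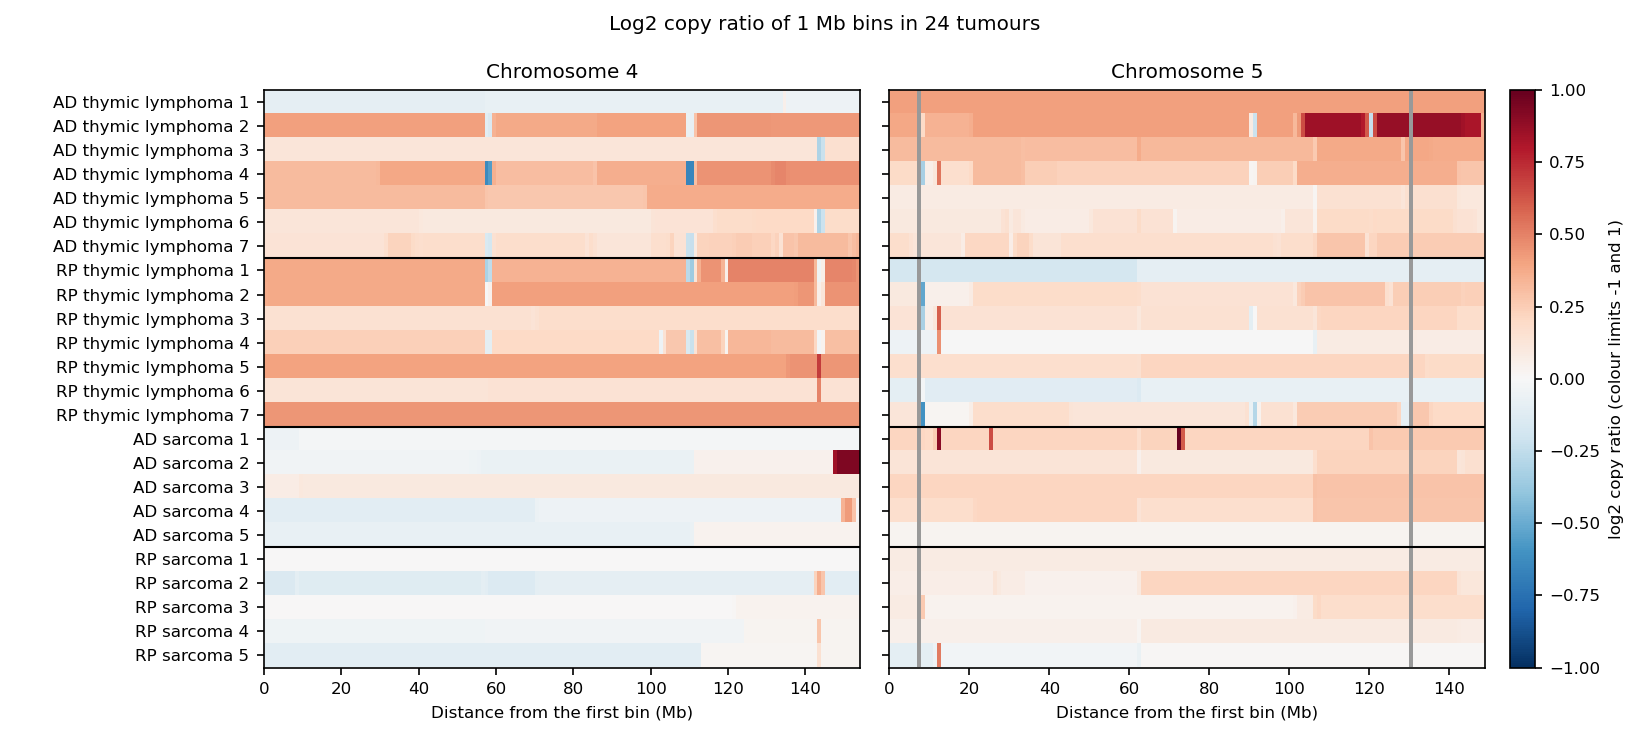
Log2 copy ratio of each 1 Mb bin (colour) by distance from the chromosome's first bin (horizontal axis, Mb) in the 24 tumours (rows, black lines between groups), with the bins left out in grey. Chromosome 4 is red along its whole length in RP thymic lymphomas 5 and 7, and the distal part of chromosome 5 in AD thymic lymphoma 2 and the distal end of chromosome 4 in AD sarcoma 2 are darker than the rest of their chromosomes.

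A bin was called gained at a log2 of 0.3 or above, which is 1.23 times the ratio of the comparison DNA. On chromosome 4, 39.4% of bins per tumour were gained on average in AD and 59.0% in RP thymic lymphomas, where all autosomal bins had 10.3% and 10.5%. On chromosome 5, 47.3% of bins were gained in AD and 0.194% in RP thymic lymphomas. In sarcomas the chromosome 4 share was 1.30% in AD and 0.130% in RP tumours, and that of chromosome 5 was 0.544% and 0.136%, all below the 1.83% of all autosomal bins in AD and 0.494% in RP sarcomas. With each tumour centred on its autosomal median, chromosome 5 had 67.8% in AD and 20.9% in RP thymic lymphomas, and chromosome 4 had 59.3% and 69.7%, where all autosomal bins had 17.9% and 19.8%. The centred share of chromosome 5 in RP thymic lymphomas was thus near that of all bins. In sarcomas the centred share of chromosome 5 was 20.7% in AD and 0.136% in RP tumours, where all bins had 4.62% and 1.08%, and that of chromosome 4 was 1.30% and 0.390%. The medians taken off ran from -0.25 to -0.06 in AD and from -0.25 to -0.01 in RP thymic lymphomas, so that centring raised every thymic lymphoma.

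Most gains on chromosome 4 covered either nearly all of it or little of it. The gained percent of its bins was 0, 96.8, 0, 96.8, 72.7, 0 and 9.74 in AD thymic lymphomas 1 to 7, against 94.8, 97.4, 0, 20.1, 100, 0.649 and 100 in RP thymic lymphomas 1 to 7. With a whole gain set at 80% of the bins, 2 AD and 4 RP thymic lymphomas had one. AD thymic lymphoma 5 stood just under that line, with a level of 0.27 to 0.37 along the entire chromosome and 0 steps of 0.2 or more. AD thymic lymphoma 7 and RP thymic lymphoma 4 passed the cutoff over part of the chromosome, both in the distal part, with bin medians of 0.17 and 0.24. With centred values 97.4% and 94.8% of their bins were gained. Outside the shared stretches described below they had 0 and 2 steps of 0.2 or more. Whether these gains count as partial thus rests on the cutoff and the centring.

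On chromosome 5 the gained percent was 100, 97.3, 98.6, 35.4, 0, 0 and 0 in AD thymic lymphomas 1 to 7, against a highest value of 0.680%, a single bin, in the 7 RP thymic lymphomas. Whole gains were in 3 AD and 0 RP thymic lymphomas. The partial one, AD thymic lymphoma 4, had bins on both sides of the cutoff, with a median of 0.24. AD thymic lymphomas 5, 6 and 7 had means of 0.10, 0.12 and 0.19, beside 0.19 in RP thymic lymphoma 5, the highest of its group. In sarcomas 0 of 10 tumours had a whole gain of either chromosome. At a cutoff of 0.2, AD sarcomas 1 and 3 had bins past it over at least 80% of chromosome 5, and RP sarcomas had 0 such tumours.

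The gain of a whole chromosome was not always 1 unbroken segment. Chromosome 4 of RP thymic lymphoma 7 was a single segment of 153 Mb at 0.44, and chromosome 5 of AD thymic lymphoma 1 was a single segment of 148 Mb at 0.41. AD thymic lymphoma 4, also gained on 96.8% of chromosome 4, had 22 segments there, and RP thymic lymphoma 1 had 17. AD thymic lymphoma 7 had the most segments on chromosome 4, 41, and AD thymic lymphoma 6 the most on chromosome 5, 37. On chromosome 4 most of the large changes of level inside these gains lay at a few shared places, described next.

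Stretches shared by many tumours broke up both chromosomes. A stretch was listed where at least 5 tumours departed from the median of their own surroundings (10 Mb) by 0.2 or more. Chromosome 4 had 4 such stretches with 5.53 Mb in all, and chromosome 5 had 7 with 1.12 Mb. The 4 on chromosome 4 lie in clusters of related genes. They are the major urinary protein genes (Mup) at chr4:60136080-61834554, the Skint genes, whose founding member selects T cells of the skin, at chr4:112081699-112419096 and chr4:112815443-114244545, and a cluster of zinc finger genes (Zfp) at chr4:145696160-147761220. Reads from very similar copies can be placed on any of them, so copy number in these clusters is taken as uncertain. How alike the copies are was not measured here.

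The Mup stretch was low in 3 of 7 AD and 3 of 7 RP thymic lymphomas, with departures down to -1.10 in AD and -0.75 in RP, and was away in 0 of 10 sarcomas. Each Skint stretch was low in 3 AD and 2 RP thymic lymphomas, down to -1.44 in AD and -0.83 in RP, and in 0 sarcomas. The Zfp stretch was low in 2 AD and 3 RP thymic lymphomas and high in 1 RP sarcoma, by 0.45. Low stretches were not limited to tumours with chromosome 4 past the cutoff. AD thymic lymphomas 3 and 6 were low at the Zfp stretch with 0% of chromosome 4 gained. Their chromosome 4 means were 0.12 and 0.13, above 0 but under the cutoff.

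On chromosome 5 the stretches were shorter and went both ways. Rfc1, which encodes the large subunit of the clamp loader in DNA replication, lay in a stretch of 72.5 kb at chr5:65263062-65335523 that departed in 12 tumours. It was high in 2 AD thymic lymphomas, high in 1 and low in 3 RP thymic lymphomas, and low in 3 AD and 3 RP sarcomas. Its highest departure was 0.75, in AD thymic lymphomas, and its lowest was -0.88, in RP sarcomas. Zfp932, a zinc finger gene at chr5:109940425-109996627, was low in 3 AD and 2 RP thymic lymphomas and high in 3 AD and 1 RP sarcomas, with departures from -1.26 to 1.35. Bud31, a splicing factor gene at chr5:145142473-145146442, was low in 3 AD and 1 RP thymic lymphomas, low in 2 AD sarcomas and high in 2 RP sarcomas. A stretch of Speer genes at chr5:15472086-15710741 was high in 1 AD and 2 RP thymic lymphomas and in 1 AD and 1 RP sarcoma. Where these shared departures come from was not tested.

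**Figure D2:**
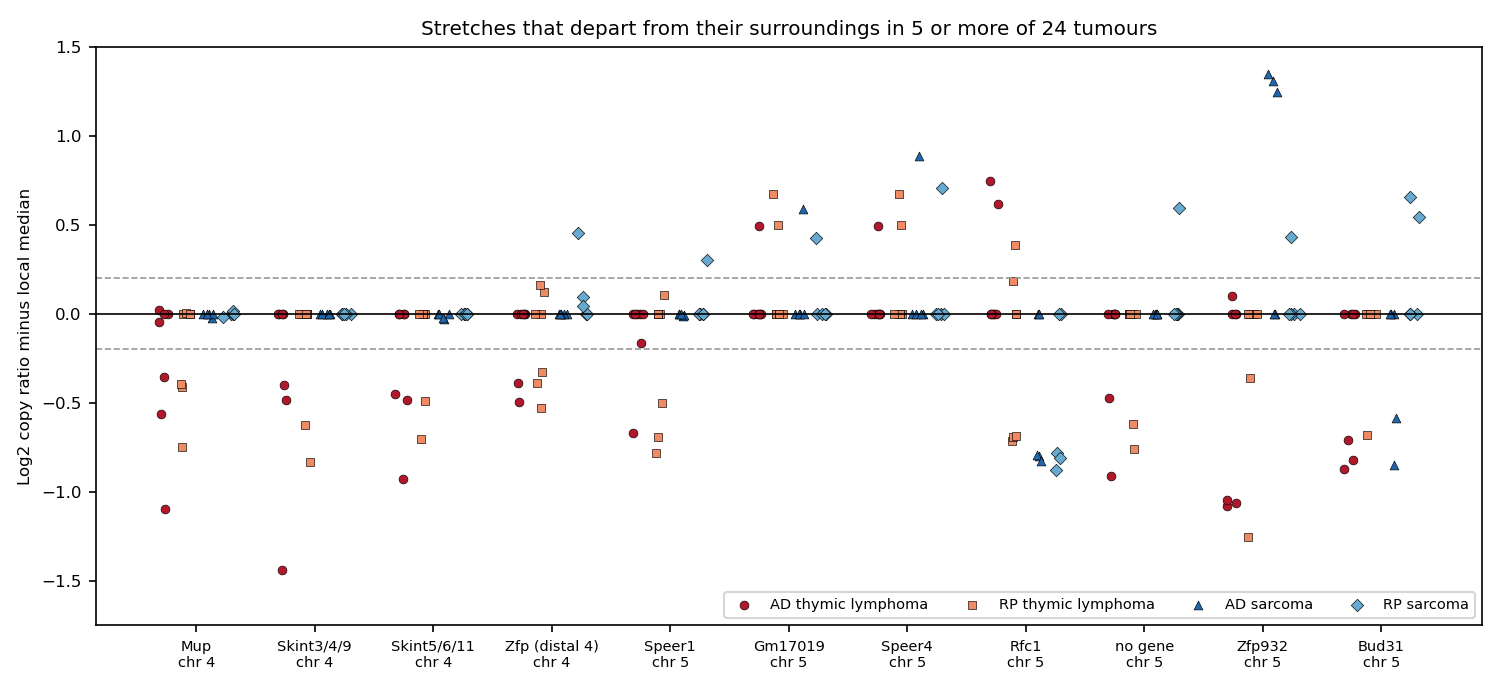
Departure of each tumour from its own surroundings (vertical axis, log2) at the 11 shared stretches (horizontal axis, by gene or family), with points for single tumours by group and dashed lines at 0.2 and -0.2. On chromosome 4 the thymic lymphomas past a dashed line all lie below 0, while Rfc1, Zfp932 and Bud31 have tumours on both sides.

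Partial changes were counted as steps of at least 0.2 between neighbouring bins, a measure the choice of chromosomes did not use. On chromosome 4, AD thymic lymphomas had a lowest, median and highest number of 0, 2 and 4 steps, against 0, 2 and 9 in RP thymic lymphomas. On chromosome 5 these numbers were 0, 0 and 8 in AD, against 0, 2 and 7 in RP thymic lymphomas. The genotypes overlapped throughout. The means on chromosome 4 were 2.29 ± 1.80 in AD and 3.57 ± 3.64 in RP thymic lymphomas (SD, n = 7 each, two-sided exact permutation test, p = 0.499, adjusted p = 1). Those on chromosome 5 were 2.0 ± 3.46 in AD and 2.29 ± 2.75 in RP (p = 0.886 by the same exact test, adjusted p = 1).

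In sarcomas chromosome 4 had 0.60 ± 0.89 steps in AD and 0.80 ± 1.10 in RP tumours, and chromosome 5 had 1.40 ± 3.13 in AD and 0.60 ± 0.89 in RP (SD, n = 5 each, exact permutation test, p = 1 for both). The AD value on chromosome 5 came from AD sarcoma 1, with 7 steps against 0 in the other 4. Without the bins of the shared stretches, a setting chosen after the data were seen, the steps on chromosome 4 over all thymic lymphomas fell to 4, against 41 with those bins. That left 0 in AD and 4 in RP thymic lymphomas, 2 each in RP thymic lymphomas 1 and 4. On chromosome 5, 10 steps remained in AD and 6 in RP thymic lymphomas, and 8 of the 10 were in AD thymic lymphoma 2.

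In thymic lymphomas the longest run of the most often gained bins, as deposited, lay distally on chromosome 4 in both genotypes and on chromosome 5 in AD. With centred values this no longer held for chromosome 4 in RP thymic lymphomas, where 145 bins were gained in 5 of 7 tumours and the longest run of them was chr4:3000001-60000000, at the proximal end. The centred run of AD thymic lymphomas was chr4:119000001-145000000 on chromosome 4, and on chromosome 5 it was the same as with deposited values. On chromosome 4, between 2 and 9 of the 14 thymic lymphomas were gained at a bin, with a median of 7, and the longest run at 9 tumours was chr4:148000001-154000000. In AD thymic lymphomas 4 of 7 were gained at most, longest over chr4:141000001-154000000. In RP thymic lymphomas 5 of 7 were, longest over chr4:123000001-145000000, and the runs of the genotypes overlapped. This RP run ended beside the Zfp stretch, and the run of all 14 thymic lymphomas began beyond it. The centred runs ended beside the Zfp stretch in AD and beside the Mup stretch in RP thymic lymphomas. Copy number in these clusters is uncertain, so such ends do not bound a gained region. On chromosome 5, AD thymic lymphomas had 2 to 4 gained tumours at a bin, and the 49 bins at 4 tumours fell into 7 runs, the longest at chr5:110000001-123000000. That run began beside the Zfp932 stretch and ended just before a low segment of AD thymic lymphoma 2, described below. RP thymic lymphomas reached 2 of 7 on that chromosome in 1 bin, chr5:15000001-16000000, which lies at the Speer genes. In AD sarcomas 2 of 5 were gained at chr4:152000001-155000000, through AD sarcomas 2 and 4, and RP sarcomas had 0 there.

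**Figure D3:**
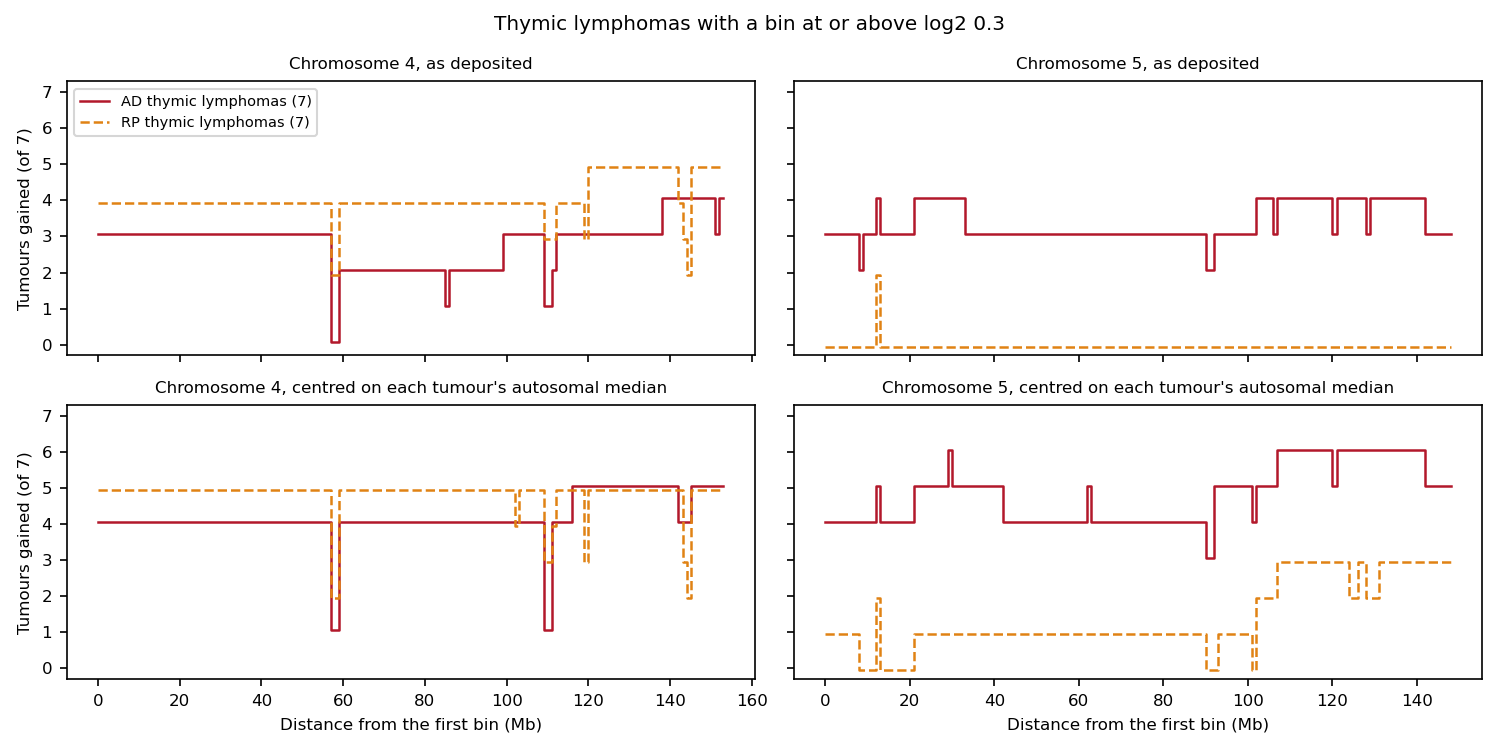
Number of AD (solid) and RP (dashed) thymic lymphomas gained at each bin, of 7 each (vertical axis), by distance from the chromosome's first bin (horizontal axis, Mb), as deposited (top) and centred (bottom). On chromosome 4 both lines are high with notches at the shared stretches, and on chromosome 5 as deposited the AD line runs between 2 and 4 while the RP line leaves 0 at a single bin.

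Within tumours, the bins distal to the middle of each chromosome stood above those proximal to it, a difference that the level of the whole chromosome does not fix. On chromosome 4 the difference was 0.02 ± 0.02 over thymic lymphomas (SD, n = 14, above 0 in 12, two-sided exact sign-flip permutation test, p = 0.000488, adjusted p = 0.000977). On chromosome 5 it was 0.06 ± 0.06 (above 0 in 13 of 14, p = 0.000244, adjusted p = 0.000977 by the same exact test). Sarcomas had 0.04 ± 0.04 on chromosome 4 (n = 10, above 0 in 9, exact p = 0.0039, adjusted p = 0.0052) and 0.04 ± 0.04 on chromosome 5 (above 0 in 7, exact p = 0.0156, adjusted p = 0.0156). These differences passed in both tumour types but were small against a gain of 0.3. The highest sarcoma value on chromosome 4, 0.12, was in AD sarcoma 2, which carries a distal gain described below. AD sarcoma 4, with a shorter distal gain, had 0.07, and so had RP sarcoma 5 with 0% of the chromosome gained.

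The same difference did not pass between AD and RP tumours. On chromosome 4 distal minus proximal was 0.03 ± 0.02 in AD tumours and 0.02 ± 0.01 in RP tumours among thymic lymphomas (SD, n = 7 each, exact permutation test, p = 0.3001, adjusted p = 0.6002). On chromosome 5 AD thymic lymphomas had 0.07 ± 0.08 and RP thymic lymphomas 0.05 ± 0.02 (exact p = 0.842, adjusted p = 0.842). There AD thymic lymphoma 2 had 0.25, and the next AD value was 0.07. Without that tumour the difference of AD minus RP was -0.01, the opposite sign. In sarcomas the exact p was 0.484 on chromosome 4 and 0.262 on chromosome 5 (adjusted p = 0.6455 and 0.6002, n = 5 each).

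Other autosomes tilted in both directions. In thymic lymphomas the mean difference of the 17 others ran from -0.04 to 0.08 and was above 0 in 10, and chromosome 5 ranked 3 and chromosome 4 ranked 5 of 19. In sarcomas it was above 0 in 8 of the 17, and chromosome 4 ranked 2 and chromosome 5 ranked 4. Chromosome 15 had 0.044 there, and chromosome 2 had 0.038, above 0 in 10 of 10 sarcomas. In thymic lymphomas gene number and mean tilt lay to the same side on chromosomes 4 and 5. They did so on every other autosome except chromosomes 10, 14 and 16. RefSeq has 408 protein-coding gene starts proximal and 893 distal to the middle of chromosome 4, and 426 proximal and 810 distal on chromosome 5. The largest mean tilts in thymic lymphomas, both 0.08, were on chromosomes 16 and 14, where fewer genes lay distally, 251 distal and 418 proximal on chromosome 16 and 233 distal and 616 proximal on chromosome 14. The tilt of chromosome 16 was above 0 in 3 of 14 and that of chromosome 14 in 13 of 14. Over bins, the gene count and the thymic lymphoma mean had a Spearman rho of 0.51 on chromosome 4 (154 bins) and 0.42 on chromosome 5 (147 bins), where neighbouring bins share segments. In sarcomas rho was 0.44 and 0.40. The part of gene density in the tilt was not tested.

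**Figure D4:**
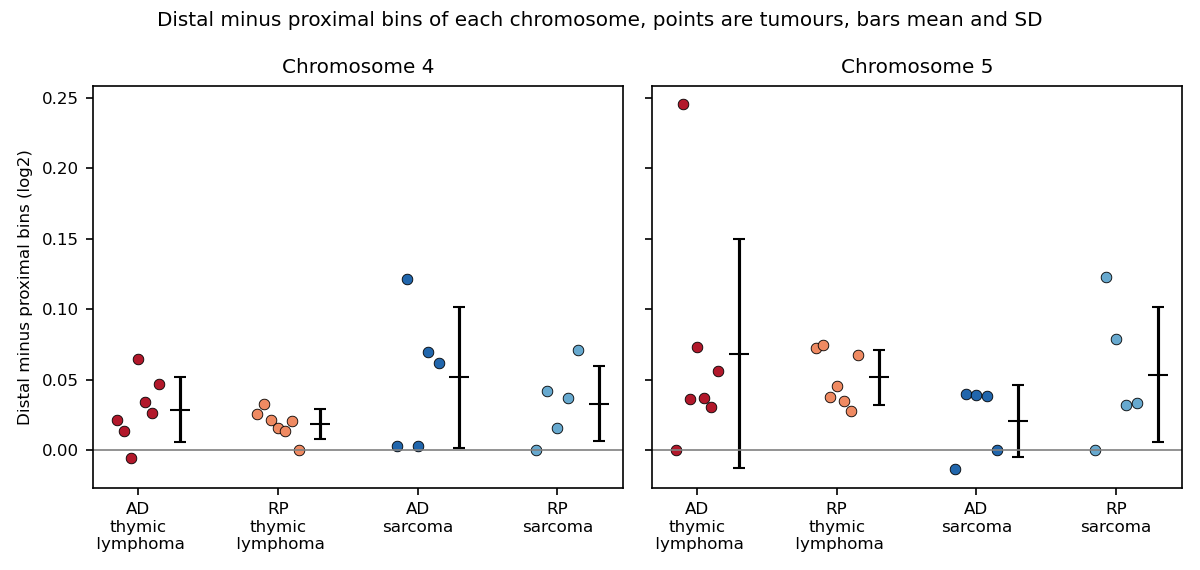
Mean of the bins distal to the chromosome's middle minus that of the proximal ones (vertical axis, log2) on each chromosome by group, with points for tumours and bars for mean and SD. Most points lie above 0 in all 4 groups, and AD thymic lymphoma 2 stands alone at 0.25 on chromosome 5.

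Whether both gains came in the same tumours was described by the 2 chromosome means of each tumour, with no test, since the chromosomes were chosen on these means. Across all 14 thymic lymphomas Pearson's r was -0.12 and Spearman's rho -0.06. Without AD thymic lymphoma 1 and RP thymic lymphoma 7, the 2 farthest from the median on chromosome 4, r was 0.19. Within genotypes r was -0.03 and rho 0.00 in AD thymic lymphomas (n = 7), against 0.37 and 0.46 in RP thymic lymphomas (n = 7). In sarcomas r was 0.34 and rho 0.30 (n = 10). Centring moved these values. It takes the same median off both chromosome means of a tumour, which by itself can move r and rho. Over all thymic lymphomas r was then -0.02 and rho 0.12, in AD thymic lymphomas 0.01 and 0.14, in RP thymic lymphomas 0.53 and 0.82, and in sarcomas 0.52 and 0.15. As deposited, the sign of r over thymic lymphomas rested on 1 tumour, since r was 0.17 without AD thymic lymphoma 1, whose chromosome 5 was gained throughout with chromosome 4 at -0.08.

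Without AD thymic lymphoma 2, r was -0.62 in the remaining AD thymic lymphomas. Of all 171 pairs of autosomes, 94 had a higher r across thymic lymphomas than chromosomes 4 and 5. Counted as gains over at least 50% of the bins, both chromosomes were gained in 1 thymic lymphoma, AD thymic lymphoma 2. Only chromosome 4 was gained in 6, only chromosome 5 in 2 and neither in 5. These counts were not tested, since gained shares were used in choosing the chromosomes. In AD tumours the counts were 1 with both, 2 with only chromosome 4, 2 with only chromosome 5 and 2 with neither. In RP tumours they were 0, 4, 0 and 3. With centred values 4 thymic lymphomas had both, 3 AD and 1 RP.

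**Figure D5:**
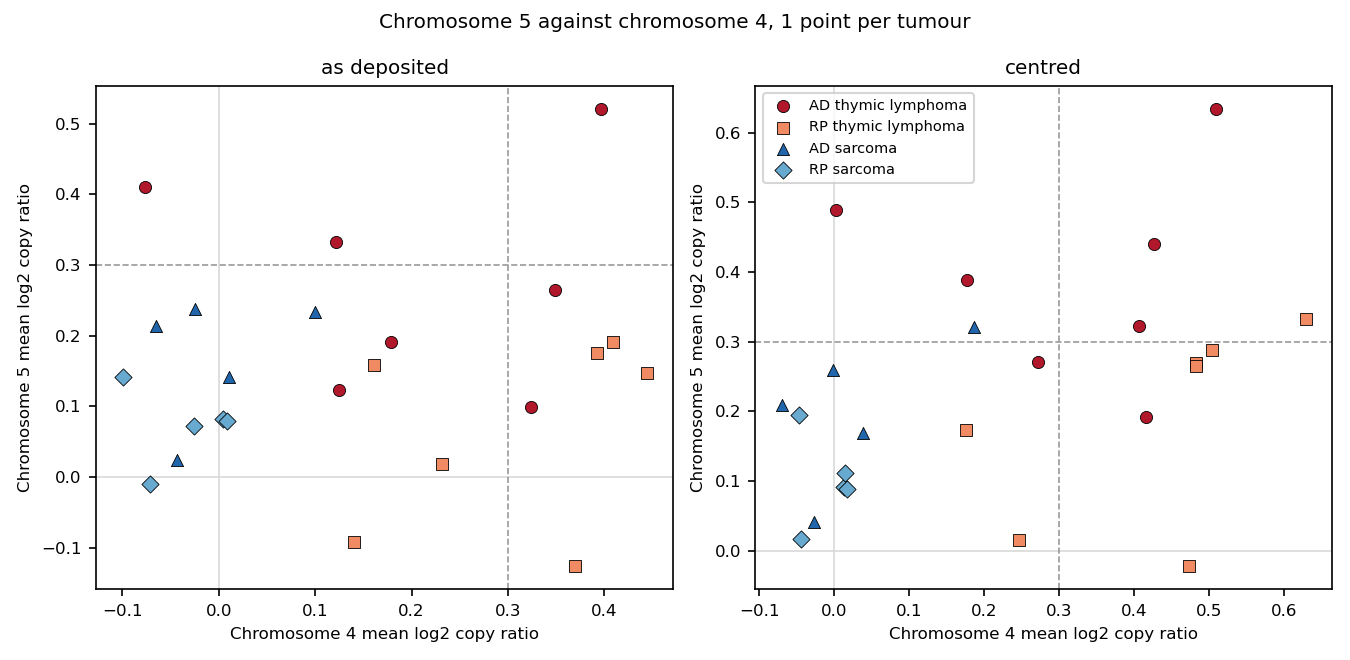
Mean log2 copy ratio of chromosome 5 (vertical axis) against chromosome 4 (horizontal axis), 1 point per tumour by group, as deposited (left) and centred (right), with dashed lines at 0.3. AD thymic lymphoma 2 is the only point past both lines as deposited, and AD thymic lymphoma 1 lies at 0.41 on chromosome 5 and -0.08 on chromosome 4.

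Bins were also compared across the whole autosomal table, with p-values adjusted over all 2388. These contrasts were used in choosing the chromosomes, so the counts are a description. Between AD and RP thymic lymphomas 0% of all bins were called by the exact permutation test, and 0 of 301 here. The difference of AD minus RP had a median of -0.10 over chromosome 4 and 0.20 over chromosome 5, beside 0.04 over all bins. An unadjusted p under 0.05 was found in 236 of all bins, 140 of them on chromosome 5 and 0 on chromosome 4. Chromosome 5 was chosen on this contrast and its bins share long segments. The 140 bins are therefore no test and are not independent of each other. limma also called 0 bins, with an unadjusted p under 0.05 in 284. Between AD and RP sarcomas 0% of all bins were called, and 0 of 301 here. The median difference was 0.02 on chromosome 4 and 0.10 on chromosome 5, beside 0.00 over all bins, with 142 unadjusted p under 0.05, 58 on chromosome 5. With centred values the count on chromosome 5 was 28. Leaving out 1 tumour at a time, it ran from 0, as without AD sarcoma 1, to 101 without AD sarcoma 5. With 5 tumours in each group the smallest exact p is 0.00794, which passes adjustment only if at least 380 bins reach it. limma called 0 sarcoma bins, with an unadjusted p under 0.05 in 341.

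Between thymic lymphomas and sarcomas 39.8% of all bins were called by the permutation test within genotype, 5.9% higher and 33.9% lower in thymic lymphomas. Centring moved that split to 166 bins higher and 288 lower, where deposited values gave 141 and 810. On chromosome 4, 141 of 154 bins were called, all higher in thymic lymphomas, with a median difference of 0.29. All called higher bins of the autosomes lay there as deposited, 141 of 141, and 144 of 166 did with centred values. On chromosome 5, 0 bins were called, with a median difference of 0.05, and 0 had an unadjusted p under 0.05, while limma called 0 there and 142 on chromosome 4. With centring, 21 bins of chromosome 5 were called, all higher in thymic lymphomas.

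Segments over 3 Mb that stood at least 0.2 from the median of their own chromosome numbered 5, 3 of them on chromosome 5 of AD thymic lymphoma 2 and 2 on chromosome 4 of sarcomas. In AD thymic lymphoma 2, chromosome 5 stood at a median of 0.41, and chr5:106455449-121828401 at 0.85 (15.4 Mb), chr5:124578436-146504621 at 0.87 (21.9 Mb) and chr5:146525828-151095420 at 0.82 (4.57 Mb). The distal part was thus higher by 0.41 to 0.46 than a chromosome that was itself gained. Between these segments lay Kdm2b, which encodes a histone demethylase, in a segment at 0.92 (chr5:122691252-122961409, 74 markers), followed by a low segment at -0.92 (chr5:123171977-123638955, 131 markers). The low segment held 11 protein-coding genes, among them Bcl7a, a subunit gene of a chromatin remodelling complex, and Diablo, whose product promotes apoptosis. Setd1b, a histone methyltransferase gene at its edge, stood at -0.10. Bcl7a was at -0.92 in this tumour and between 0.16 and 0.41 in the other 6 AD thymic lymphomas, against -0.09 to 0.28 in RP thymic lymphomas.

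At the distal end of chromosome 4, AD sarcoma 2 was gained at 0.96 over chr4:150098757-150643947 and at 0.93 over chr4:150897283-156349920 (5.45 Mb, 1089 markers), with the rest of the chromosome at a median of -0.04. AD sarcoma 4 was gained at 0.42 over chr4:152178170-155661105 (3.48 Mb, 599 markers). Trp73 was at 0.93 in AD sarcoma 2 and 0.42 in AD sarcoma 4, between -0.02 and 0.10 in the other 3 AD sarcomas, and between -0.10 and 0.04 in RP sarcomas. Rpl22, a ribosomal protein gene important for developing T cells, and Chd5, a chromatin remodeller gene, lay in both gains, and Eno1, a glycolysis enzyme gene, in that of AD sarcoma 2. In thymic lymphomas Trp73 stood within 0.3 of the chromosome 4 mean in 14 of 14 tumours.

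AD sarcoma 1 carried the amplified segments of chromosome 5. Kit stood at 1.39, which is 2.61 times the ratio of the comparison DNA, with 0.09, 0.21, 0.17 and 0.02 in AD sarcomas 2 to 5, against 0.08, 0.21, 0.03, 0.09 and 0.01 in RP sarcomas 1 to 5. The amplified segment, chr5:75162242-75946818, had 53 markers and covered 100% of Kit, 76.7% of Pdgfra and 30.3% of Kdr. Behind it came a segment of 29.4 kb at 0.20, which holds the rest of Kdr that was measured, and then chr5:76140327-76363554 at 1.43 with Clock, a circadian transcription factor gene. Another segment, chr5:28071437-28413670 at 1.34, lay far proximal to Kit and held En2, a homeobox gene.

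Other focal segments had few markers. RP sarcoma 2 had 11 markers at 2.11 over 71.7% of Ccne2, the cyclin E2 gene, at chr4:11192703-11202984. AD thymic lymphoma 4 had 14 markers at 0.88 with Alad, a haem synthesis enzyme gene, and AD thymic lymphoma 7 had 3 losses of 5 or 6 markers, 1 of them with Id3, an inhibitor of helix-loop-helix factors, at -0.82. With focal set as up to 3 Mb, 5 or more markers and a log2 of at least 0.8 either way, there were 20 such segments, 11 of them outside the shared stretches, in 6 tumours. Of the 11, 7 were gains and 4 were losses.

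The genes of both chromosomes mostly followed the level of their chromosome. Of 89 listed genes, 56 stayed within 0.3 of their chromosome's mean in all 24 tumours. That held for 38 of 46 on chromosome 4 and 18 of 43 on chromosome 5, and most of the exceptions on chromosome 5 were distal genes of AD thymic lymphoma 2. Among 10 cell cycle genes and p53 relatives on chromosome 4, each was gained in 2 to 4 of 7 AD and 4 or 5 of 7 RP thymic lymphomas. Cdkn2a was lost in 0 of 24 tumours and had a mean of 0.19 ± 0.17 in AD and 0.30 ± 0.13 in RP thymic lymphomas (SD, n = 7 each). The 14 T-cell and blood genes were likewise gained in 2 to 4 AD and 4 or 5 RP thymic lymphomas, with Lck at 0.25 ± 0.19 in AD and 0.34 ± 0.14 in RP. Jak1, a cytokine receptor kinase gene, was gained in 2 AD and 4 RP thymic lymphomas, and Mtor, a growth kinase gene inside the most gained run, in 4 and 5.

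On chromosome 5, 12 cell cycle and genome maintenance genes were each gained in 3 or 4 AD and 0 RP thymic lymphomas. Chek2, a checkpoint kinase gene in the most gained run, had 0.37 ± 0.23 in AD and 0.12 ± 0.16 in RP thymic lymphomas, and Cdk6, near the proximal end, had 0.24 ± 0.13 and 0.03 ± 0.13. Brca2, a DNA repair gene, had 0.33 ± 0.24 in AD and 0.10 ± 0.14 in RP. Flt3, a receptor kinase gene of blood progenitors near the distal end, had 0.34 ± 0.24 in AD and 0.10 ± 0.14 in RP, and Kit, in the middle, had 0.24 ± 0.14 and 0.07 ± 0.12. Genes on 1 segment share its value, so counts of genes are not independent of the bins or of each other.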

How the data were processed

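DNA copy number was measured by exome sequencing in 24 tumours. Per the submitters' processing notes, the build was GRCm38 and the tools included GATK 4.1.0.0, BWA 0.7.17 and Trim Galore 0.6.5, with no roles stated. Per the file headers, the deposited tables give each segment's ends, number of markers and mean, taken here as a log2 copy ratio. For the comparison DNA, the segmentation, the centring and any purity correction, details were not given in the sources used here. Depth is unknown, so no interval rests on counts, and the 24 tumours alone measure error.

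Bins of 1 Mb took the overlap-weighted segment value. Analyses used Python 3.11.15, numpy 2.4.6, pandas 2.3.3, scipy 1.17.1, R 4.3.3 and limma 3.58.1, and matplotlib 3.10.9 drew the plots. Permutation tests were two-sided, exact over 3432 or 252 splits of the tumours or over sign flips, and otherwise with 100000 resamples, with Benjamini-Hochberg adjustment. They were tested on simulated data. Genes were placed by RefSeq on GRCm38.p6, and a gene took the overlap-weighted value of its segments or, where none reached it, that of the nearest. Replicates were numbered in accession order. Alternatives were centring, limma, 5 Mb bins, other cutoffs and step sizes, other averages, and leaving out each tumour. Named genes came from 10 lists on both chromosomes, from the most gained runs and from focal segments, up to 30. Rfc1, Zfp932, Bud31, Mir34a and the Mir200 cluster were chosen after their values were seen. The chromosomes and gene lists were chosen with earlier results of these data known.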

Additional observations from a re-analysis of the deposited data

Results flagged for a closer look

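Of 24 groups of values checked for a sample far from the others (chromosome means, steps and distal minus proximal differences), 2 held one, where chance gives about 1 in 20. AD sarcoma 1 had 7 steps on chromosome 5 and the other 4 AD sarcomas had 0. These steps bound the amplified segments with Kit, Clock and En2 and the Speer stretch. AD thymic lymphoma 2 had a distal minus proximal difference of 0.245 on chromosome 5, where the other 6 AD thymic lymphomas ran from 0 to 0.07. Its 3 long distal segments stood at 0.82 to 0.87.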

How the results depend on the processing

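Of 398 recomputed values for 39 results, 364 were labelled the same as the main value, 22 reversed, 7 stronger and 5 weaker. For counts of called bins, the same meant an equal or a close count. Between AD and RP tumours these counts were 0 in every setting. For r, it meant the same sign and the same side of the threshold of an adjusted p that is not read as a test here. Centring called 454 of all bins in thymic lymphomas against sarcomas, where deposited values called 951, with 21 on chromosome 5, turned r in AD thymic lymphomas to 0.0081 and gave 4 thymic lymphomas with both gains. It gave whole gains of chromosome 4 in 4 AD thymic lymphomas and of chromosome 5 in 1 RP thymic lymphoma and 1 AD sarcoma. Marker weighting turned r in AD thymic lymphomas to 0.056. A cutoff of 0.2 gave both gains in 2 thymic lymphomas and whole gains of chromosome 5 in 2 AD sarcomas. A cutoff of 0.5 left 0 tumours with both and 0 with a whole gain of chromosome 4 (AD and RP) or 5 (AD). The AD minus RP difference in steps on chromosome 5 of thymic lymphomas turned to 0.86 with steps of 0.1, 0.29 with at least 10 markers and 0.57 without the shared stretches, where that on chromosome 4 of sarcomas turned to 0.60. The cause of these shifts was not tested.

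Leaving out 1 tumour at a time, r ran from -0.35 to 0.17 over thymic lymphomas, with -0.62 to 0.42 for AD and 0.10 to 0.68 for RP tumours of that type, and from -0.0093 to 0.50 over sarcomas. Tumours with both gains ran from 0 to 1. Step differences ran from -1.88 to -0.38 (chromosome 4) and -1.29 to 0.50 (chromosome 5) in thymic lymphomas, and -0.55 to 0.10 and -0.60 to 1.15 in sarcomas. The AD minus RP difference in distal minus proximal on chromosome 5 of thymic lymphomas ran from -0.0127 to 0.0282. No paired analysis of AD against RP tumours was possible, since each tumour name has its own animal number.

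Marker numbers, not reads, set the resolution. The unknown comparison DNA and centring move every cutoff, and 5 tumours in a group limit every sarcoma test.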
